A study of Mus musculus with 20 samples.

Results

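The 9 genes described here are markers used to recognise dendritic cells: Zbtb46, Flt3, Xcr1, Clec9a, Cd209a, Clec10a, Ccr7, Fscn1 and Batf3. They were taken as a named list of mouse symbols, all 9 were matched to an Ensembl identifier, and they were read from tables of 49315 gene identifiers. The libraries were not made from dendritic cells but from lung eosinophils, granulocytes of the myeloid lineage, collected on a flow cytometer. One group came from the lungs of untreated C57BL/6 mice (resting lung, n = 5 libraries). The other came from Balb/c lungs transplanted into C57BL/6 mice and collected at day 7 without costimulatory blockade (CSB), a treatment that withholds accessory activation signals from T cells (day 7, n = 5 libraries). Every library is a pool of lungs from 3 to 5 mice, the eosinophils in the graft are described as those of the recipient, and age and sex are not stated in the labels. The 10 libraries of grafts under blockade, at day 7 and day 30, were not analysed here.

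Dendritic cells take up antigen, carry it to lymph nodes and present it to T cells. Conventional dendritic cells depend on the growth factor receptor encoded by Flt3 and express the transcription factor gene Zbtb46. Their type 1 subset, which cross-presents antigen to CD8 T cells, requires Batf3 and carries the receptors of Xcr1 and Clec9a, while Cd209a and Clec10a encode C-type lectins found on the type 2 subset and on some monocyte-derived cells and macrophages. On maturation both subsets raise Ccr7, the receptor that guides them to lymph nodes, and Fscn1, an actin-bundling protein. Several of these genes are not restricted to dendritic cells: Zbtb46, for example, is also transcribed in endothelium, and Ccr7 in T and B cells.

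Promoter windows are given for Batf3 and Xcr1, a pair of type 1 genes that both rose at day 7. RefSeq (build GRCm38.p6) supplied a window of 250 bases before and 50 bases after the start site for 7 of the 9 genes. The window of Zbtb46 is not shown, because its RefSeq start site lies 35038 bases downstream of the 5′ end of the GENCODE gene, inside the gene body. All 7 windows were searched on both strands for GAAA repeated after any 2 bases (interferon-stimulated response element core), TTCNNNGAA (STAT site), TGANTCA (AP-1 and BATF site), AGGAAGT (PU.1 site) and GGG followed after any 2 bases by TTTCC (NF-kB site). Capitals mark the matches. The Batf3 window lies at chr1:191098164-191098463 on the plus strand. Its start site is 567 bases downstream of the GENCODE 5′ end, so this window too lies inside the annotated gene. The Xcr1 window lies at chr9:123861980-123862279 on the minus strand, at the GENCODE 5′ end.
Batf3: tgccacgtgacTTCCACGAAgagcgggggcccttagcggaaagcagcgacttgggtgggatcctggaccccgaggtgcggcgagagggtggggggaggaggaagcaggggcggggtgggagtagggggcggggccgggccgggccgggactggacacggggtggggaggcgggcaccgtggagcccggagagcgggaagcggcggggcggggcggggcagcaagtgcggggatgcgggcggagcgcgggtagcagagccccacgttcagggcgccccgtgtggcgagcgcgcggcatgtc
Xcr1: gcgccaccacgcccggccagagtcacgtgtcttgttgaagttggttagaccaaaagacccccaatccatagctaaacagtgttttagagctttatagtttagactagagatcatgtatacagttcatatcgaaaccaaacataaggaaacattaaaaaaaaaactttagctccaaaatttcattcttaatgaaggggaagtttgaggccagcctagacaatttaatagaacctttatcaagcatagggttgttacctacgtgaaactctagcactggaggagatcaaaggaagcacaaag
The Batf3 window holds the STAT letters once and no other match, and 8.30% of 32851 RefSeq promoter windows of this length hold those letters. The shares for the other motifs, in the order above, are 3.44%, 7.81%, 9.35% and 1.63%. The Zbtb46 window holds TGANTCA once, at -61 from its RefSeq start site, and no other match. The windows of Xcr1, Clec9a, Cd209a, Flt3 and Fscn1 hold none of the 5 motifs.

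At day 7 without blockade 5 of the 9 genes were higher than in resting lung, 1 was lower and 3 did not pass the test. Xcr1, Batf3, Clec10a, Ccr7 and Fscn1 rose by 1.56-fold to 2.61-fold, Zbtb46 fell 2.51-fold, and Flt3, Clec9a and Cd209a did not pass. Differences were tested over all 16500 genes that had enough counts, with edgeR's quasi-likelihood test and an adjusted p below 0.05. All 9 markers had enough counts to be tested. In this comparison 46.7% of all genes tested passed, 23.3% higher and 23.4% lower, and 6 of 9 is read against that share. The median log2 fold change was 0.64 over the 9 genes and 0.05 over all genes tested. Levels of single genes are CPM, the counts scaled to a common library total, with the total corrected for composition (TMM), and fold changes are day 7 over resting.

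**Figure D1:**
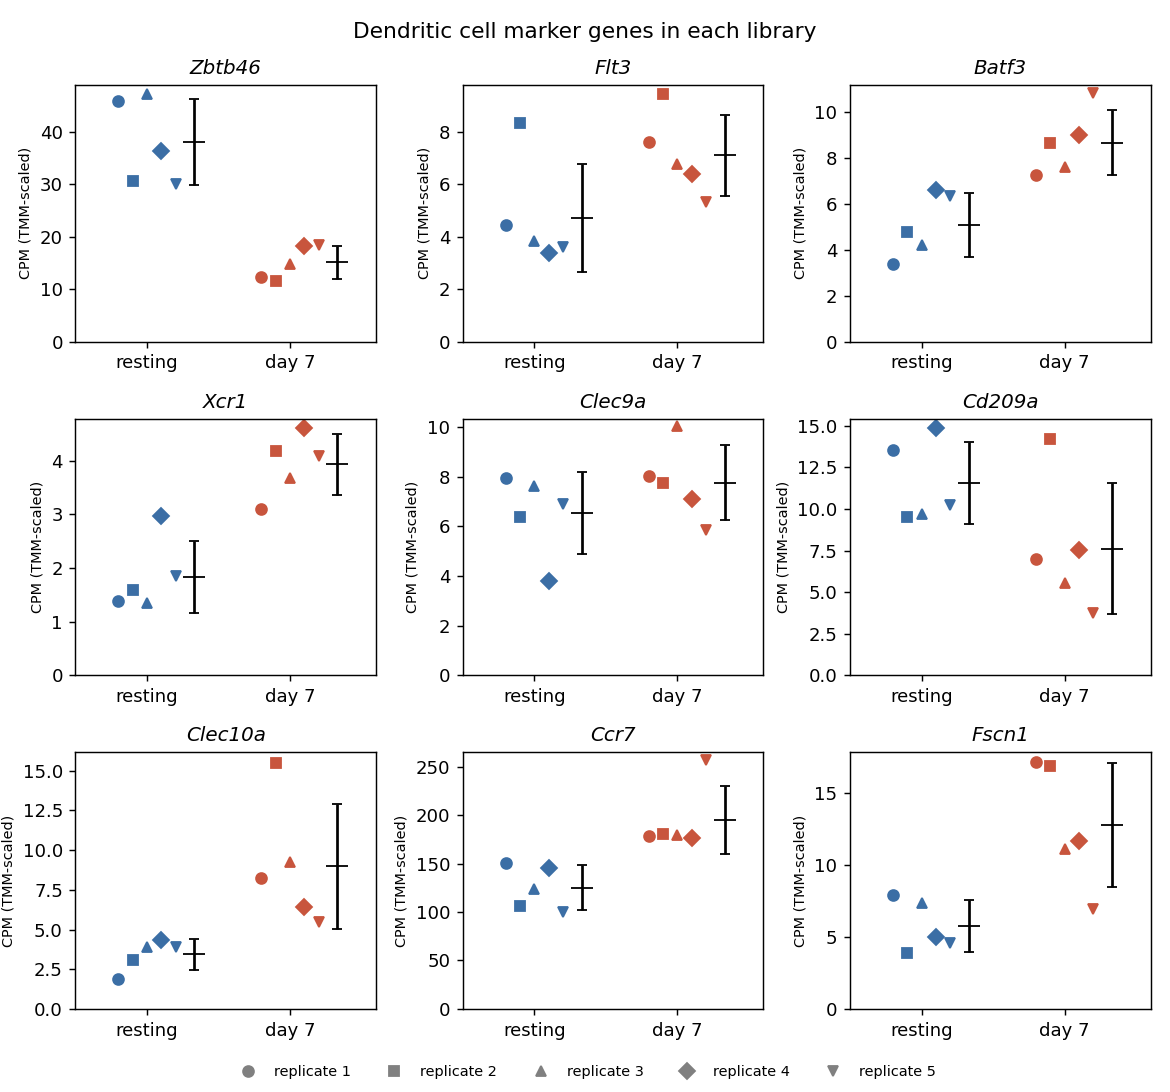
Level of each of the 9 marker genes (vertical axis, TMM-scaled CPM, starting at 0) in 5 resting lung libraries (blue) and 5 day 7 libraries without blockade (red). Symbols stand for the replicate number, and the bar beside each group is its mean ± SD. All day 7 libraries lie below the resting ones for Zbtb46 and above them for Xcr1, Batf3, Clec10a and Ccr7, while the groups overlap for Flt3, Clec9a, Cd209a and Fscn1. Of all genes tested 18.7% lie wholly below and 16.4% wholly above.

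Library depth and cell content bear on every value. Total counts were 6666577 to 12883144 per resting library and 15695074 to 26683784 per day 7 library, and a floor of 3 counts equals 0.112 to 0.450 CPM, which covers counting error only. The groups stood in separate tables, so a batch and the group cannot be told apart. In bulk libraries fewer cells of a type and less RNA per cell cannot be told apart either. The eosinophil genes Ccr3 (356 and 443 CPM in resting lung and at day 7) and Siglecf (148 and 222 CPM) were present in both groups, and of 14 eosinophil markers 2 were higher, 6 lower and 6 did not pass. Those lower were the granule protein genes Epx (93.1 ± 69.1 to 6.89 ± 3.83 CPM), Prg2 (463 ± 186 to 81.5 ± 52.7 CPM), Prg3, Ear1, Ear2 and Ear6, with log2 fold changes from -3.75 to -1.79. Markers of other cells moved between them: in CPM of the uncorrected totals, summed T cell markers (12 of 12 higher) ranged from 115 to 167 in resting lung and from 386 to 1049 at day 7. Monocyte and interstitial macrophage markers (12 of 14 higher) ranged from 2026 to 3532 and from 4479 to 10291. Endothelial markers (10 of 10 lower) ranged from 2041 to 2923 and from 73.0 to 150.4, and B cell and plasma cell markers (1 of 8 higher, 5 lower) from 657 to 1002 and from 425 to 739. In these 4 lists none of the markers was at 0 in all libraries. Neutrophil markers summed to 9390 to 11841 CPM in resting lung and 4275 to 8638 CPM at day 7. In every library that lay above the sum of eosinophil markers, 2362 to 4129 and 1244 to 4115 CPM. Epithelial markers (9 of 10 lower) ranged from 3443 to 6642 and from 36.2 to 473.8 CPM.

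Of the genes of the whole conventional lineage, Zbtb46 fell and Flt3 did not pass. Zbtb46 encodes a zinc finger repressor (ENSMUSG00000027583, chromosome 2, 181387762 to 181459426, mm10). Its level was 46.0, 30.6, 47.2, 36.4 and 30.2 CPM in resting replicates 1 to 5 and 12.4, 11.6, 14.9, 18.3 and 18.4 CPM in day 7 replicates 1 to 5. The lowest resting library therefore lay above the highest day 7 library, a separation downward seen in 18.7% of all genes tested. The log2 fold change was -1.33 ± 0.18 (SE; quasi-likelihood adjusted p = 3.83e-05). Endothelial markers, whose cells also transcribe Zbtb46, were lower in the same libraries (10 of 10 lower, median log2 fold change -4.92), and their part in the fall of Zbtb46 was not tested.

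Flt3 encodes the receptor tyrosine kinase for FLT3 ligand (ENSMUSG00000042817, chromosome 5, 147330741 to 147400489). It was at 4.45, 8.35, 3.82, 3.38 and 3.63 CPM in the resting libraries and at 7.62, 9.45, 6.78, 6.39 and 5.33 CPM at day 7. Resting replicate 2 stood above 4 of the 5 day 7 libraries, whereas the other 4 resting libraries lay below all of them. The log2 fold change of 0.59 ± 0.26 did not pass (quasi-likelihood adjusted p = 0.0867, 95% interval 0.01 to 1.16). Without resting replicate 2 it was 0.89 and passed (adjusted p = 0.00514), and with every gene kept regardless of its counts it passed as well (0.70, adjusted p = 0.0220). Flt3l, the gene of the ligand, was at 8.52 ± 2.18 CPM in resting lung and 13.1 ± 4.01 CPM at day 7 (mean ± SD, n = 5 each; quasi-likelihood adjusted p = 0.0452). That call ended with RLE factors (adjusted p = 0.0502) and with library totals alone (0.157) in place of TMM. It also ended when resting replicate 1, 3 or 4 was left out, or replicate 4 or 5 of day 7 (adjusted p up to 0.101).

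Among the genes of type 1 conventional dendritic cells, Batf3 and Xcr1 rose while Clec9a did not pass. Batf3, a basic leucine zipper factor that pairs with JUN proteins (ENSMUSG00000026630, chromosome 1, 191097847 to 191108945), had 3.39, 4.77, 4.24, 6.63 and 6.37 CPM in resting lung and 7.25, 8.68, 7.61, 9.03 and 10.8 CPM at day 7. No day 7 library was as low as the highest resting one, which holds upward for 16.4% of all genes tested, and the log2 fold change was 0.77 ± 0.21 (quasi-likelihood adjusted p = 0.00864). Batf3 is also made by activated T cells, and their part was not tested. Summed T cell markers were highest in day 7 replicate 5 (1049 CPM of the uncorrected total), the library with the highest Batf3. Among the day 7 libraries they were lowest in replicate 2 (386 CPM), whose Batf3 lay above that of replicates 1 and 3.

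Xcr1 encodes the receptor of the chemokine XCL1 (ENSMUSG00000060509, chromosome 9, 123852315 to 123862029). It was the lowest of the 9 genes, with 1.38, 1.59, 1.34, 2.98 and 1.85 CPM in resting lung, from 13 to 25 counts per library. At day 7 it had 3.11, 4.18, 3.69, 4.61 and 4.09 CPM, from 51 to 94 counts. The groups did not overlap, which holds upward for 16.4% of all genes tested, although resting replicate 4 came close to day 7 replicate 1. The log2 fold change was 1.12 ± 0.26 (quasi-likelihood adjusted p = 0.00296). Xcl1, the gene of the ligand made by T and natural killer cells, changed more: from 1.07 ± 0.31 to 39.8 ± 46.2 CPM, with 122 CPM in day 7 replicate 5 and 9.89 to 25.7 CPM in the other 4. Its log2 fold change was 5.22 ± 0.73, and 4.18 without that library.

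Clec9a encodes DNGR-1, a receptor for actin filaments exposed by dead cells (ENSMUSG00000046080, chromosome 6, 129408862 to 129424763). Its resting libraries held 7.95, 6.36, 7.65, 3.79 and 6.89 CPM and its day 7 libraries 8.04, 7.75, 10.04, 7.12 and 5.87 CPM. The ranges overlapped, and the log2 fold change of 0.25 ± 0.22 did not pass (quasi-likelihood adjusted p = 0.380, 95% interval -0.22 to 0.71). On the same strand 184 of its 3293 exon bases are also annotated to Clec1b, a platelet lectin gene that went from 19.8 ± 4.31 to 4.97 ± 0.27 CPM and was named after its values were seen. No label says how reads in those bases were counted. Across the 10 libraries, with group means removed, Xcr1 and Batf3 deviated together (Pearson r = 0.80), whereas Clec9a deviated against both (r = -0.83 with Xcr1 and -0.76 with Batf3). These correlations rest on low counts from shared libraries and are descriptions of 10 points. Resting replicate 4, the library with the fewest counts (6666577), was the lowest in Clec9a (3.79 CPM). Among the resting libraries it was the highest in Xcr1 (2.98 CPM) and Batf3 (6.63 CPM). Correlations without that library were not computed.

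The C-type lectins Cd209a and Clec10a did not follow one direction. Cd209a (ENSMUSG00000031494, chromosome 8, 3743397 to 3748984) is related to human DC-SIGN, a receptor for mannose-rich sugars. It had 13.6, 9.55, 9.71, 14.9 and 10.2 CPM in resting lung and 7.01, 14.2, 5.57, 7.51 and 3.77 CPM at day 7. Of the day 7 libraries 4 lay below every resting library, and replicate 2 lay above all but 1 of them. The log2 fold change of -0.60 ± 0.30 did not pass (quasi-likelihood adjusted p = 0.116, 95% interval -1.25 to 0.04). Without day 7 replicate 2 it was -0.94 and passed (adjusted p = 0.00460), and it also passed with library totals alone in place of the composition correction (-0.82, adjusted p = 0.0379). Day 7 replicate 2 also had the highest summed monocyte and interstitial macrophage markers, 10291 CPM of the uncorrected total. Replicate 3 came next with 6942 CPM, at a Cd209a level of 5.57 CPM. The resting libraries, mostly higher in Cd209a, had 2026 to 3532 CPM of these markers, and the part of these cells was not tested.

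Clec10a encodes a lectin of the galactose type (ENSMUSG00000000318, chromosome 11, 70156197 to 70170834). It went from 1.91, 3.08, 3.93, 4.33 and 3.93 CPM in resting lung to 8.23, 15.5, 9.25, 6.39 and 5.50 CPM at day 7. The groups did not overlap, which holds upward for 16.4% of all genes tested. The log2 fold change of 1.39 ± 0.30 was the largest rise among the 9 genes (quasi-likelihood adjusted p = 0.00204). Its tandem paralog Mgl2 (chromosome 11, 70130329 to 70137550), also a marker of type 2 dendritic cells, went the opposite way, from 11.6 ± 1.34 to 2.84 ± 1.37 CPM, a log2 fold change of -2.04 ± 0.31 (adjusted p = 0.000102). Of the counts assigned to either gene, Clec10a held 13.7% to 27.3% in the resting libraries and 67.2% to 89.1% at day 7, a separation that follows from the 2 genes' own values and was not tested further. Monocyte and interstitial macrophage markers rose in the same libraries (12 of 14 higher), whereas of 9 alveolar macrophage markers 2 were higher and 5 lower. The part of these cells in the exchange was not tested.

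**Figure D2:**
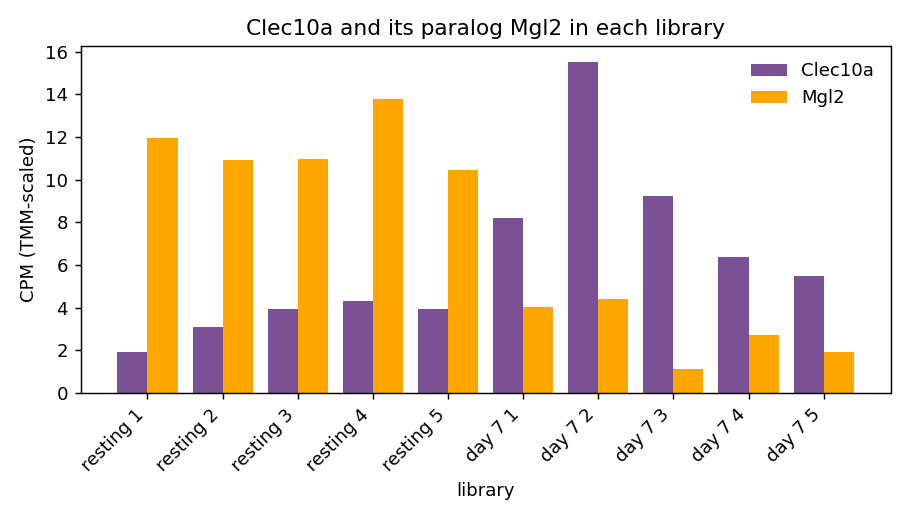
Level of Clec10a (purple) and Mgl2 (orange) in each library, as bars of TMM-scaled CPM starting at 0. Mgl2 is the higher bar in all 5 resting libraries and Clec10a in all 5 day 7 libraries.

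The sequences of Clec10a and Mgl2 show where reads can be told apart. Their coding sequences (915 and 996 bases, first GENCODE M21 transcript of each gene) are identical at 91.5% of 915 aligned positions, with 1 run of 183 identical bases. Of the distinct 50-base windows of Clec10a transcripts, 9.02% occur in transcripts of another gene, mainly Mgl2. One stretch of 120 bases is the same in both, at positions 502 to 621 of the Clec10a coding sequence and 547 to 666 of that of Mgl2.
Clec10a and Mgl2: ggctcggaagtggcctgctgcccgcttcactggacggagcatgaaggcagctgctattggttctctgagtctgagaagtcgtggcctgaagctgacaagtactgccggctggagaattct
The 120 bases that differ most have 35 differences, in capitals, at positions 793 to 912 of Clec10a and 838 to 957 of Mgl2, near the end of the coding sequence.
Clec10a: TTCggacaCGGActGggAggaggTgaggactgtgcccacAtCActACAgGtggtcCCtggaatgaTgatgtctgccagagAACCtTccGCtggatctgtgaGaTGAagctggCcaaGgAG
Mgl2: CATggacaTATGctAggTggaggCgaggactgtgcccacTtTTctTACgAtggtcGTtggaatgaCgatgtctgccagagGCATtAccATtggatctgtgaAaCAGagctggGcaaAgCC
No label says how reads that match both genes were counted, which leaves the split uncertain over the shared stretches. Of the other markers, Clec9a shared 4.02% of its 50-base windows with other genes, Xcr1 1.63% and Flt3 0.05%, while Zbtb46, Cd209a, Ccr7, Fscn1 and Batf3 shared none.

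Both genes of mature, migrating dendritic cells rose. Ccr7, the receptor for CCL19 and CCL21 (ENSMUSG00000037944, chromosome 11, 99144196 to 99155077), had 151, 106, 124, 146 and 99.7 CPM in resting lung and 179, 181, 180, 177 and 257 CPM at day 7. Day 7 replicates 1 to 4 lay within a few CPM of each other, and replicate 5 stood apart above them. All 5 exceeded every resting library, which holds for 16.4% of all genes tested. The log2 fold change was 0.64 ± 0.15 (quasi-likelihood adjusted p = 0.00349) and 0.53 without day 7 replicate 5. That replicate also had the highest T cell marker sum, 1049 CPM against 386 to 704 CPM in the other day 7 libraries. T and B cells transcribe Ccr7 too. Of 8 B cell and plasma cell markers 5 were lower at day 7 and 1 higher. The part of T or B cells was not tested. Of the ligand genes, Ccl21a had no count in any library and Ccl19 reached at most 0.21 CPM.

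Fscn1 (ENSMUSG00000029581, chromosome 5, 142960343 to 142973185) had 7.95, 3.88, 7.34, 5.00 and 4.59 CPM in resting lung and 17.2, 16.9, 11.1, 11.7 and 6.95 CPM at day 7. Day 7 replicate 5, the library highest in Ccr7, was the lowest in Fscn1 and fell below 2 resting libraries. Even so the log2 fold change of 1.15 ± 0.27 passed (quasi-likelihood adjusted p = 0.00355). With group means removed, the 2 genes did not deviate together over the 10 libraries (Pearson r = -0.10), and Fscn1 deviated against Batf3 (r = -0.67).

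**Figure D3:**
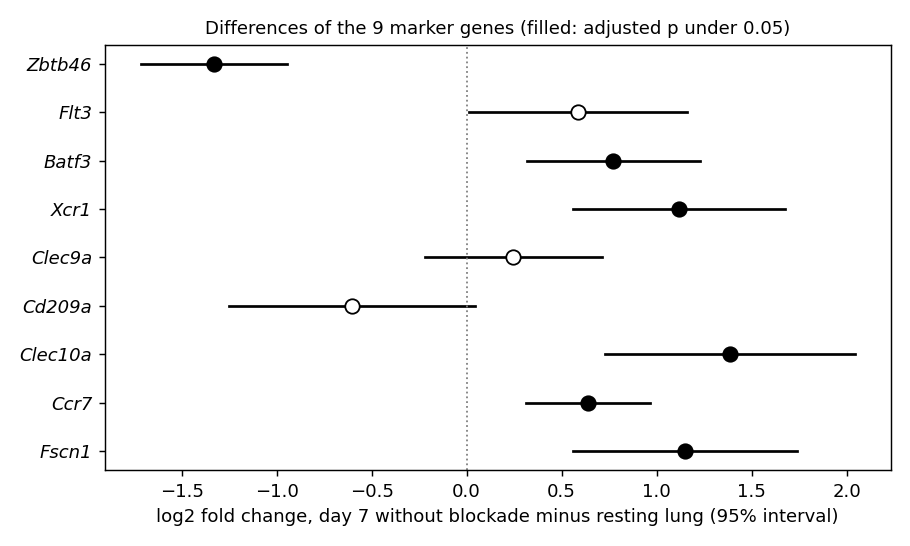
Log2 fold change of each marker gene, day 7 without blockade minus resting lung (horizontal axis), with its 95% interval. Filled points passed an adjusted p of 0.05 and open points did not. Zbtb46 lies at -1.33, the 5 filled points to the right of 0 run from 0.64 to 1.39, and the intervals of Clec9a and Cd209a cross 0.

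Ccr7 made up most of the summed level of the 9 genes. In CPM of the uncorrected totals the sum was 216 ± 39.1 in resting lung and 249 ± 33.1 at day 7 (SD, n = 5 each). Ccr7 gave 59.3% to 65.3% of it in the resting libraries and 67.2% to 80.9% at day 7. The other 8 genes together ranged from 69.8 to 95.2 CPM in resting lung and from 58.7 to 78.5 CPM at day 7, so the ranges overlapped, and the sum does not show the opposite changes of its members.

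Divided by exon length, which allows levels to be compared between genes, the order at rest was Ccr7 at 63.3 ± 11.6 CPM per kb, Cd209a at 7.32 ± 1.56, Zbtb46 at 4.48 ± 0.96, Batf3 at 3.18 ± 0.87, Clec9a at 1.98 ± 0.50, Fscn1 at 1.91 ± 0.59, Clec10a at 1.18 ± 0.33, Flt3 at 0.77 ± 0.33 and Xcr1 at 0.41 ± 0.15 (SD, n = 5). The libraries of neighbours in this order overlapped except for Ccr7 against Cd209a and Cd209a against Zbtb46. At day 7 Ccr7 again led with 98.5 ± 17.7 CPM per kb, followed by Batf3 at 5.44 ± 0.88, Cd209a at 4.81 ± 2.495, Fscn1 at 4.23 ± 1.43, Clec10a at 3.10 ± 1.36, Clec9a at 2.36 ± 0.46, Zbtb46 at 1.78 ± 0.37, Flt3 at 1.15 ± 0.25 and Xcr1 at 0.88 ± 0.13. There each gene after Ccr7 overlapped its neighbour. Zbtb46 moved from the third place to the seventh.

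Other genes of dendritic cells, from lists that leave out the 9 markers, went in both directions, as did all genes tested. Over all genes tested 23.3% were higher and 23.4% lower, with a median log2 fold change of 0.05. The counts of each list below are read against these shares. Of 11 regulators and receptors of the conventional lineage 6 were higher, 3 lower and 2 did not pass (median log2 fold change 0.39). Irf8, the factor required for type 1 cells and also induced by interferon, rose from 76.7 ± 17.8 to 420 ± 75.9 CPM, and Irf4, required for type 2 cells, from 6.74 ± 0.55 to 17.3 ± 3.47 CPM. Nfil3, which acts upstream of Batf3 in progenitors, rose by a log2 fold change of 2.14 ± 0.16. Kit, the stem cell factor receptor, fell by 2.28 on the log2 scale, while Relb (adjusted p = 0.255) and Bcl11a (0.532) did not pass. Endothelial markers (10 of 10 lower) and epithelial markers (9 of 10 lower) fell in the same libraries. The part of other cells in the fall of Kit was not tested.

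Of 13 further type 1 genes tested 5 were higher, 2 lower and 6 did not pass (median 0.02). Ifi205 rose from 6.05 ± 2.44 to 155 ± 57.5 CPM, Naaa, a lysosomal amidase, from 56.5 ± 9.51 to 286 ± 109 CPM, and Rab7b, a small GTPase of endosomes, from 18.0 ± 4.22 to 101.4 ± 45.8 CPM. Cd8a rose by a log2 fold change of 4.12 ± 0.37 in libraries whose other T cell markers rose as well. The 2 lower genes were Cadm1, an adhesion molecule that marks type 1 cells, which fell from 48.8 ± 7.21 to 13.2 ± 3.91 CPM, and Plet1, which fell from 58.3 ± 13.4 to 24.1 ± 11.7 CPM. Wdfy4, which cross-presentation by type 1 cells requires, had 101 ± 19.4 and 94.1 ± 15.2 CPM and did not pass, nor did Cd24a (adjusted p = 0.781). Of 11 further type 2 genes tested 5 were higher, 4 lower and 2 did not pass (median 0.03). Tnip3, an inhibitor of NF-kB signalling, rose by 2.43 ± 0.24 and Ccr6 by 1.39 ± 0.22, whereas Klf4, a factor that promotes type 2 development, fell by 1.29 beside Mgl2. H2-DMb2 and Clec4a4 did not pass (adjusted p = 0.886 and 0.775). The part of other cells, such as endothelium and epithelium, in the falls of Cadm1, Plet1 and Klf4 was not tested.

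Of 21 further genes of mature cells tested 10 were higher, 3 lower and 8 did not pass (median 0.31). Il12b, the p40 subunit of interleukin-12, rose from 2.25 ± 1.56 to 11.9 ± 3.49 CPM, Cd40 from 20.6 ± 3.74 to 131 ± 57.6 CPM and Cd274, the gene of PD-L1, by a log2 fold change of 3.21 ± 0.29. Apol7c, an apolipoprotein L family gene, rose by 2.48 on the log2 scale, and by 3.94 without resting replicate 3. Birc3 and Samsn1 did not pass (adjusted p = 0.125 and 0.239). Ccl22 and Ccl17, chemokines of mature type 2 cells, were chosen after their values were seen: Ccl22 had 10.1 ± 5.49 and 9.48 ± 3.53 CPM and did not pass, and Ccl17 fell from 4.86 ± 2.95 to 1.40 ± 0.46 CPM. Macrophages also express Cd40, Cd274 and Il12b. In these libraries 12 of 14 monocyte and interstitial macrophage markers were higher. Of 9 alveolar macrophage markers 2 were higher and 5 lower. The part of these cells was not tested.

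Among 10 genes of plasmacytoid dendritic cells, the interferon-producing relatives of the conventional cells, 5 were higher, 3 lower and 2 did not pass (median 0.59). Pacsin1 rose from 0.51 ± 0.23 to 5.26 ± 1.76 CPM and Bst2, which interferon induces in many cells, by a log2 fold change of 1.26 ± 0.17. Tcf4 and Spib, transcription factors of these cells, fell by 1.32 and 1.15. Tcf4 is also abundant in endothelium (10 of 10 markers lower). Spib is also abundant in B cells (B cell and plasma cell markers 5 of 8 lower, 1 higher). The part of either cell type in these falls was not tested. Ccr9 and Cox6a2 did not pass (adjusted p = 0.121 and 0.163). Of 7 BATF and JUN family genes 2 were higher, 3 lower and 2 did not pass (median -0.26). Batf rose from 14.2 ± 1.55 to 39.7 ± 5.33 CPM and Batf2 from 16.8 ± 0.89 to 78.6 ± 49.6 CPM, larger log2 changes (1.48 and 2.23) than the 0.77 of Batf3. Jun and Fosb fell by 2.02 and 1.86, and Junb and Jund did not pass (adjusted p = 0.258 and 0.818).

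**Figure D4:**
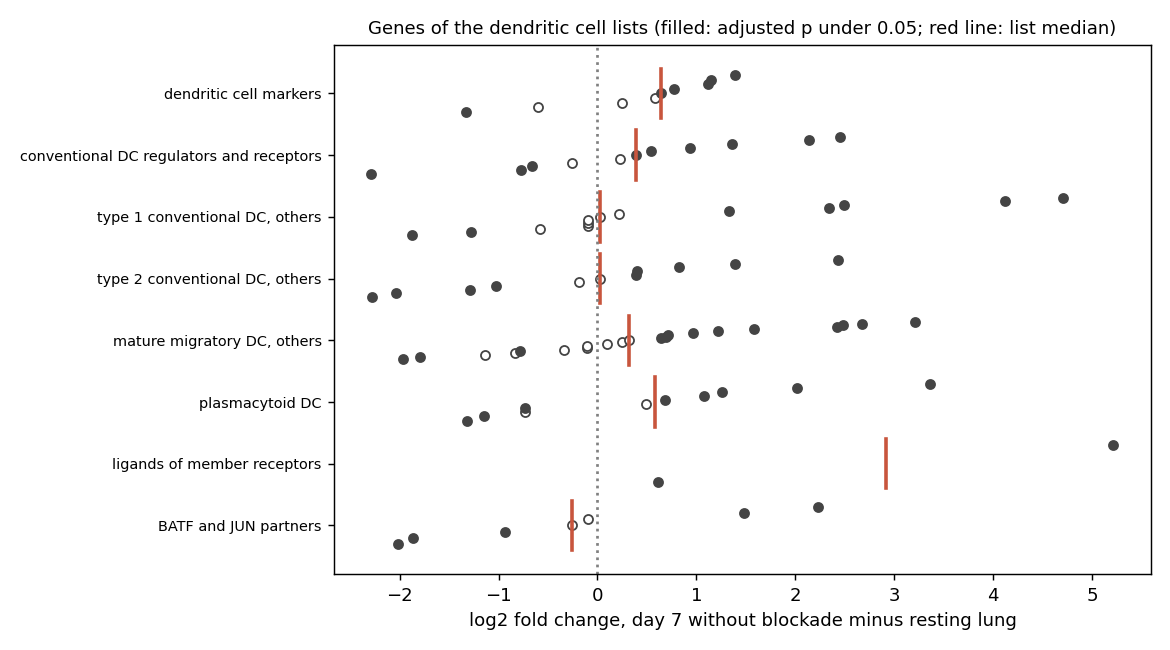
Log2 fold change (day 7 without blockade minus resting lung, horizontal axis) of each tested gene in the 9-gene marker set and 7 further lists of dendritic cell genes. Filled points passed an adjusted p of 0.05, open points did not, and the red line is the list median. Every list except the 2 ligand genes has points on both sides of 0.

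The genes whose levels ran most like those of each marker were sought by the Pearson correlation of log2 CPM over the 10 libraries after the group means were removed, among 10937 genes with at least 5 CPM on average. Xcr1, at 2.88 CPM, was below that level. The closest gene was Id3 for Cd209a (r = 0.96), Zmym6 for Fscn1 (0.97), Pnpt1 for Clec9a (0.96), Msi2 for Zbtb46 (0.95), Nfil3 for Clec10a (0.94), Cisd3 for Batf3 (0.94), Ccdc91 for Ccr7 (0.92) and Taf13 for Flt3 (0.91). Each is the highest of many correlations over the same 10 libraries and is given as a description. None of the 8 markers compared was among the 3 closest genes of another.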

How the data were processed

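RNA was sequenced from eosinophils sorted from mouse lung. Build mm10 is named in the submitters' processing notes beside STAR 2.5.2b, Trimmomatic 0.36, bcl2fastq 2.17, Subread 1.5.2 and featureCounts. Settings, strand handling and annotation release were not given in the sources used here. Overlapping genes and paralogs are therefore uncertain. The authors deposited raw counts per gene, whole numbers with unequal totals. Columns were tied to samples by name, and 10 columns that match no label were not used. Symbols came from the gene name table given with GENCODE M21 (48970 of 49315 identifiers matched), and coordinates, exon lengths and transcripts from GENCODE M21.

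Both tables were joined by identifier. edgeR 4.0.16 (R 4.3.3) removed 32815 genes with filterByExpr and compared the groups over 16500 with its quasi-likelihood test (TMM scaling, robust fit, group alone in the model), calling a Benjamini-Hochberg adjusted p below 0.05. A standard error is the size of the log2 change over the root of its F statistic. The procedure was tested on simulated data with far fewer changed genes than were called here, so that test does not cover a comparison with this many changes. Chi-square per degree of freedom between libraries of a group was at least 5.95, so none was a copy. P-values measure the spread between pools. Counts and the median stand for each list, and no test was made over a list. Named genes are the 9 markers, up to 4 called genes per list with at least 5 CPM in the higher group, by size of change, and up to 2 that did not pass by level, and the 3 genes most like each marker, of which the closest is printed. Clec1b, Ccl17, Ccl22, Cadm1, Plet1 and the single eosinophil genes were named after their values were seen. Marker lists of 10 cell types were summed, of which 4 are printed first, besides single eosinophil genes. The ranges for eosinophils, neutrophils and epithelium are repeated here. The remaining sums in CPM (lowest to highest, resting lung and day 7) were 2362 to 4129 and 1244 to 4115 for eosinophils, 1578 to 2252 and 1111 to 1628 for alveolar macrophages, 80.3 to 122.0 and 206 to 495 for natural killer cells, 9390 to 11841 and 4275 to 8638 for neutrophils, 3443 to 6642 and 36.2 to 473.8 for epithelium, and 67.3 to 132.0 and 20.1 to 189.4 for basophils and mast cells. The members and lists were chosen with earlier results of these data known. Alternatives were DESeq2 1.42.0, other scalings and filters, a non-robust fit, a replicate block and leaving out each library.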

Additional observations from a re-analysis of the deposited data

Results flagged for a closer look

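In a group of 5 libraries a value was picked out when its gap to the nearest library took more than 0.71 of the group's range. Of 142 such checks 11 gave a value picked out, and chance alone picks out about 1 in 20. Among the markers these were Flt3 in resting replicate 2 (8.35 CPM) and Ccr7 in day 7 replicate 5 (257 CPM), which also made the sum of the 9 genes highest there (307 CPM of the uncorrected total). In the same day 7 replicate Xcl1 (122 CPM) and Ccdc91 (9.27 CPM) were high and Clec4a4 (0.27 CPM) was low. In resting lung Irf8 (108 CPM), Cd40 (27.0 CPM) and Cox6a2 (3.25 CPM) were high in replicate 4, Apol7c (3.51 CPM) was high in replicate 3 and Irf4 (5.77 CPM) was low in replicate 2.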

How the results depend on the processing

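Leaving out each library in turn, or using another tool, scaling, filter, a non-robust fit or the replicate block, kept the direction of all 9 markers and every call among Zbtb46, Xcr1, Clec10a, Ccr7, Fscn1, Batf3 and Clec9a. Flt3 gained a call without a filter on low counts (log2 fold change 0.70), with the replicate block (0.64, adjusted p = 0.0312) and without resting replicate 2, its values without 1 library ranging from 0.47 to 0.89. Cd209a gained one with library totals alone (-0.82) and without day 7 replicate 2 (range -0.94 to -0.42), which made 2 markers lower instead of 1. The markers called lower numbered 1 to 2 and those called higher 5 to 6 when a library was left out. Library totals alone moved the median over all genes tested by -0.19 (log2), gave 2495 genes higher in place of 3843 (33.8% of those called against 49.9%), and left 3 of the further type 2 genes higher in place of 5. With no filter 42249 genes were tested, the median moved by -0.51, 6715 genes were lower in place of 3859, and 1 further type 1 gene was lower in place of 2. Of the ligand genes Flt3l lost its call with RLE factors, library totals alone and the replicate block. Same-numbered libraries are not matched by the labels and their deviations correlated from -0.25 to 0.16, so the replicate block pairs numbers alone; with it 3317 genes were higher and 3636 lower. Genes near 0 that did not pass changed sign: without a filter Cd24a (0.0103), Wdfy4 (0.0101) and Jund (0.0165); with library totals alone H2-DMb2 (-0.17), Taf13 (-0.0233), Mrpl2 (-0.0375), Kansl1l (-0.13) and Cisd3 (-0.0289); H2-DMb2 also with DESeq2 (-0.00318) and RLE factors (-0.00372). Without 1 library the range was -0.30 to 0.0406 for Cd24a, -0.0515 to 0.0913 for H2-DMb2, -0.39 to 0.0848 for Clec4a4, -0.34 to 0.0551 for Jund and -0.00227 to 0.20 for Kansl1l. The causes were not tested. Xcr1, with 13 to 25 counts in resting libraries, is the marker most limited by depth.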
